A study of Homo sapiens with 12 samples.

Results

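The genes described here encode proteins of the primary, or azurophilic, granules of neutrophil precursors together with the proteoglycan that packs them (SRGN), an inhibitor of their proteases (SERPINB1) and a membrane protein of the same progenitor stage (MS4A3). They were taken by symbol, by a rule that names the genes and uses no measured value. They are MPO, ELANE, PRTN3, AZU1, CTSG, BPI, LYZ, MS4A3, SERPINB1 and SRGN, which are 10 of the 60240 genes listed. The choice was made with earlier results of these data known. RNA was sequenced from HL-60, an established human promyelocytic leukaemia line of WT genotype, grown in 6-well plates from 100000 cells per mL. The tested cells received decitabine at 100 nM at 0, 24 and 48 h, and the control cells received DMSO, the solvent. RNA was taken at 6, 72 and 120 h, so that only the first dose had been given to the 6 h cells. The labels list 12 samples in 6 groups of 2, of which 11 were analysed, since the DMSO 72 h group has values for 1 library only (the heading of the deposited table has fewer columns of values below it than names). The duplicates were separate wells, and the labels do not say whether the wells came from separate cultures. The p-values therefore reflect the variation among these wells, which could be technical.

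Primary granules are the first granules made in the neutrophil lineage, at the promyelocyte stage. Many of their contents are transcribed mainly then and largely shut off as later granules are built. That timing is not taken to hold for every gene of the set, LYZ and SRGN among them. These granules hold myeloperoxidase, which makes hypochlorous acid from hydrogen peroxide and chloride, and antimicrobial proteins that act on bacterial envelopes. They also hold a family of serine proteases that are trimmed to their active form by cathepsin C. Serglycin, a proteoglycan, retains the positively charged proteases in the granule, and the cytosolic inhibitor SERPINB1 blocks proteases that leak from it. Decitabine is a cytidine analogue that enters DNA during replication and traps DNA methyltransferases, so that methylation of CpG sites is lost as cells divide.

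Of the 10 genes, AZU1 (azurocidin, an inactive protease homologue with antimicrobial activity), PRTN3 (proteinase 3) and ELANE (neutrophil elastase) lie next to one another on the plus strand of chromosome 19, at chr19:825097-832018, chr19:840960-848175 and chr19:851014-856247 in GENCODE 29 on GRCh38. The gaps between them are 8941 and 2838 bases and hold no annotated gene, and CFD, which encodes complement factor D, follows 3395 bases after ELANE. CTSG (cathepsin G) lies at chr14:24573522-24576260 on the minus strand, and MPO (myeloperoxidase) at chr17:58269856-58280935 on the minus strand. BPI (bactericidal/permeability-increasing protein) is at chr20:38304123-38337505 and LYZ (lysozyme) at chr12:69348341-69354234, both on the plus strand. SRGN (serglycin) is at chr10:69088106-69104811 and MS4A3, a membrane protein of myeloid progenitors, at chr11:60056587-60071128, both on the plus strand, and SERPINB1 is at chr6:2832332-2842006 on the minus strand. These are spans of whole genes, exons and introns together.

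RefSeq promoter sequences (GRCh38.p14) matched 5 of the 10 genes, and 4 are shown, as examples of windows with few and with many CpG sites, since decitabine acts on CpG methylation. Each is the 250 bases before the RefSeq start, read on the gene's own strand, with CpG sites in capitals. AZU1 is taken from chr19:827587-827836 (plus strand), PRTN3 from chr19:840749-840998 (plus strand), MS4A3 from chr11:60056415-60056664 (plus strand) and SERPINB1 from chr6:2841864-2842113 (minus strand).
AZU1: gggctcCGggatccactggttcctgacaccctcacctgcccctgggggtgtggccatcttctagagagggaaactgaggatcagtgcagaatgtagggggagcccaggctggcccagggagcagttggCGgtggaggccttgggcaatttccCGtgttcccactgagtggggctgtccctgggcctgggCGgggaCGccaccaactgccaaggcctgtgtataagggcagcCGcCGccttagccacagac
PRTN3: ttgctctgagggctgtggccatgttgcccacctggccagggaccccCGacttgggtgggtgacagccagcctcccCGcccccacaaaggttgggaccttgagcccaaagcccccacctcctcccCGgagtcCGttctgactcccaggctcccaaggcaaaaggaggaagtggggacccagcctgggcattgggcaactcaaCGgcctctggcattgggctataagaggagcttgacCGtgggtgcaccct
MS4A3: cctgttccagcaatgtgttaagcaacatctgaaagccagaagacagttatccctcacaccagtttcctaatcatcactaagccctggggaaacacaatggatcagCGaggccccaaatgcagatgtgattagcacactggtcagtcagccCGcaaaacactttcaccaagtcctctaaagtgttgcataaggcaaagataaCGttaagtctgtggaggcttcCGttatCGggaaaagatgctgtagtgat
SERPINB1: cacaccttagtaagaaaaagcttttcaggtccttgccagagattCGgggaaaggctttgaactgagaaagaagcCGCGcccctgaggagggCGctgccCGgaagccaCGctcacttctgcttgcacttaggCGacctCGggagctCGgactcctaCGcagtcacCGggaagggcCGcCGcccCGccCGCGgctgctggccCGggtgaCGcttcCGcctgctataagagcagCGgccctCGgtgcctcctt
AZU1 has 7 CpG sites in this window, PRTN3 has 6, MS4A3 has 5, and CTSG, which is not shown, has 3, whereas SERPINB1 has 21. The median over 35116 promoters of the same length was 11. The CEBP motif TTNNNCAA, searched on both strands, occurs once in each of PRTN3 and AZU1 and 3 times in MS4A3, and 30.2% of all promoters hold it. The stricter form TTGCNNAA, whose reverse complement is itself an instance of TTNNNCAA, has 1 match in each of PRTN3 and AZU1, 2 in MS4A3 and a share of 9.05% of all promoters. The PU.1 motif AGAGGAA is matched once, in CTSG (8.13% of all promoters), and the RUNX motif TGTGGT is in none of the 5 windows (10.98% of all promoters). AACNG, for MYB, is in all 5 windows and in 70.6% of promoters, while AACTG, an instance of it, is in 4 of the 5 and in 34.1% of promoters. No methylation or binding was measured here, and the matches describe letters only.

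All 10 genes were detected in all 11 libraries, the lowest value being 156 normalised counts (ELANE in decitabine 72 h replicate 2), and all 10 passed the filter on low values (at least 10 in at least 2 libraries). Estimated depth ran from 14427335 to 32908453 counts per library. The transcript FP671120.7 took 3.89 to 10.9% of normalised counts in the 120 h libraries of both treatments and 5.25% in decitabine 72 h replicate 1, against 0.0424 to 0.794% in the other 6 libraries. All 4 of the 120 h libraries lie on the same side of that split, whereas at 72 h the split runs through the decitabine pair. The decitabine 72 h pair differed by a median absolute log2 difference of 0.59 over all genes tested, against 0.19 to 0.26 in the other 4 pairs, so 72 h values are given library by library. In all groups, HL-60 expressed the genes that define this set. These are bulk libraries, in which fewer cells of a type and less RNA per cell cannot be told apart.

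Levels were first put in order per kilobase of each gene's longest principal (APPRIS) transcript in GENCODE 29, which may differ from the gene models used in counting. In decitabine cells at 120 h, LYZ was the most abundant, with a mean of 180219 normalised counts per kilobase, followed by SRGN with 72613, MPO with 34746, MS4A3 with 6745, PRTN3 with 3189, BPI with 2282, SERPINB1 with 1871, CTSG with 1139, AZU1 with 522 and ELANE with 372. No neighbours in that order overlapped between the replicates. In DMSO cells at 120 h the order was LYZ with 75331, MPO with 46826, SRGN with 31605, MS4A3 with 3645, PRTN3 with 3436, SERPINB1 with 1424, CTSG with 1280, ELANE with 817, BPI with 467 and AZU1 with 384 per kilobase. There the replicates of MS4A3 overlapped those of PRTN3, and those of SERPINB1 overlapped those of CTSG. Beside DMSO, the decitabine order thus has BPI, SRGN and AZU1 further up and ELANE, MPO, SERPINB1 and CTSG further down.

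**Figure D1:**
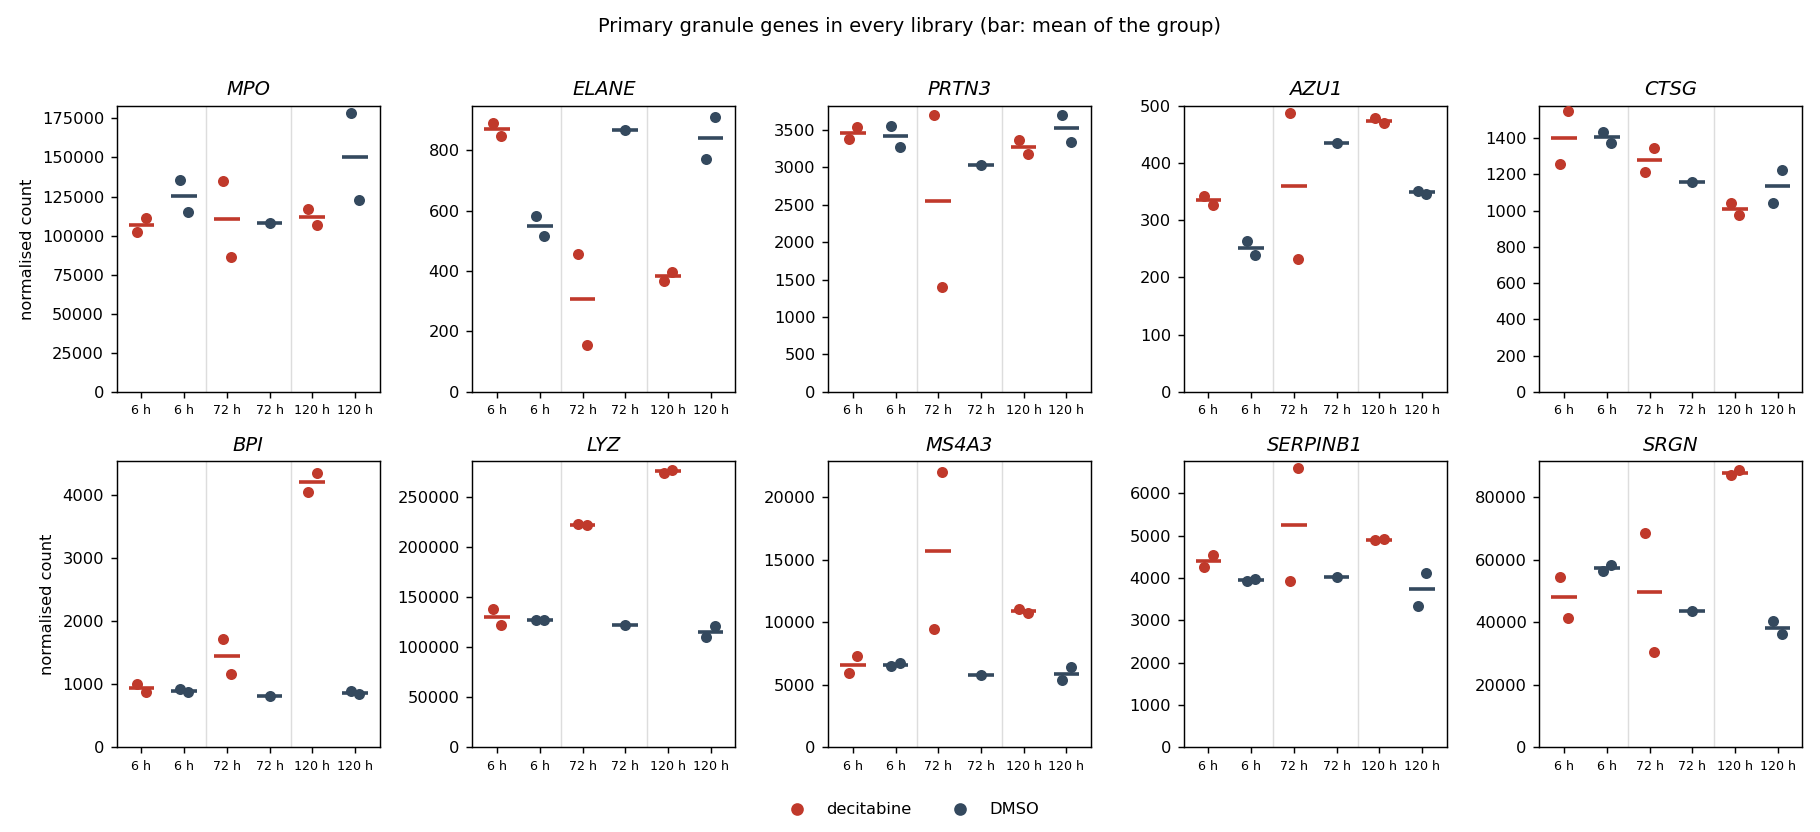
Normalised count (linear axis from 0) of each of the 10 genes in every library at 6, 72 and 120 h, decitabine in red to the left of DMSO in dark blue at each time; points are libraries and short bars are group means (DMSO at 72 h is 1 library). BPI and LYZ stand clear of DMSO at 120 h, ELANE is below DMSO at 72 and 120 h, and the decitabine 72 h points of PRTN3, AZU1, MS4A3 and SRGN lie far apart.

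The set did not move as a block. At 120 h, decitabine cells had higher BPI, LYZ and SRGN than DMSO cells (limma, Benjamini-Hochberg adjusted p under 0.05 over the 16152 genes tested), which is 3 of 10 genes called higher and 0 lower. Over all genes tested, 9.91% were called higher and 6.00% lower (15.9% in either direction). The median log2 fold change of the 10 genes at 120 h was 0.42, against 0.07 over all genes tested, with 6 of the 10 above 0. Both decitabine libraries lay outside both DMSO libraries for 9 of the 10 genes, 6 of them higher and 3 lower, a pattern met by 66.7% of all genes tested (36.1% higher, 30.6% lower). At 6 h the same was true of 5 of the 10, 3 higher and 2 lower, against 38.9% of all genes tested (18.2% higher, 20.8% lower). At 72 h limma called 0 of 10 genes, with 4 at an unadjusted p under 0.05 (BPI, LYZ, MS4A3 and ELANE), against 2.19% of all genes called (1.88% higher, 0.310% lower). At 6 h it called 0 of 10 genes, with 0 at an unadjusted p under 0.05, against 0% of all genes called (541 at an unadjusted p under 0.05). Leaving out either decitabine 120 h library left 1 gene called at 120 h (BPI), whereas leaving out either decitabine 72 h library, which lowers the estimate of spread that all groups share, gave 6 called higher (BPI, LYZ, SRGN, MS4A3, AZU1 and SERPINB1) and 1 lower (ELANE). Over all genes the split was 1601 called higher and 969 lower with the values as deposited, and 1513 and 1465 after quantile normalisation, under which the median log2 fold change of all genes was -0.10.

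**Figure D2:**
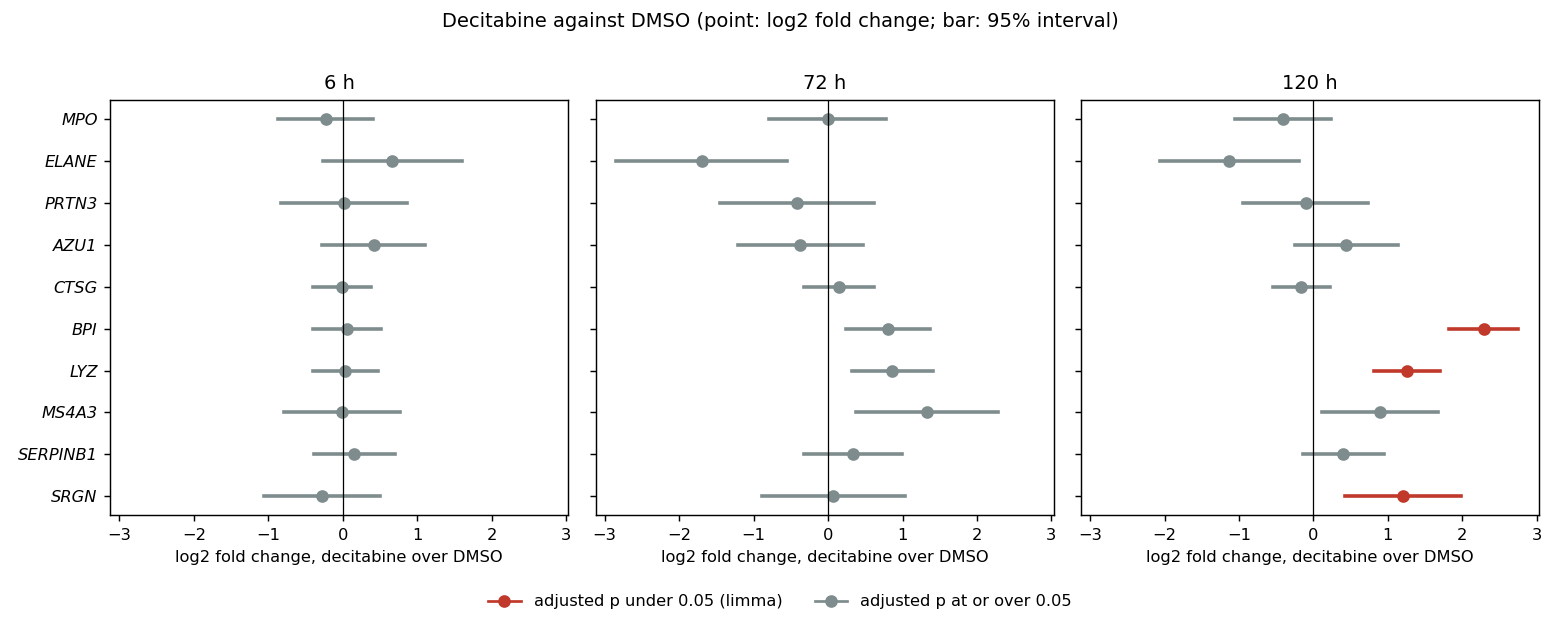
Log2 fold change of decitabine over DMSO at 6, 72 and 120 h for each gene, with 95% intervals from limma; red marks an adjusted p under 0.05. All 10 intervals include 0 at 6 h; at 120 h BPI (2.29), LYZ (1.26) and SRGN (1.20) are called, while ELANE and MS4A3 lie on opposite sides of 0 without passing the threshold.

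BPI, which binds the lipid A of Gram-negative bacteria, showed the highest fold change of the set. It had 4058 and 4363 normalised counts in decitabine cells at 120 h, against 886 and 838 in DMSO cells. At 72 h the decitabine libraries held 1725 and 1158 and the DMSO library 811, and at 6 h the decitabine libraries held 1007 and 871 against 922 and 877 in DMSO. DMSO cells thus stayed between 811 and 922 at all 3 times, and decitabine cells were above that range in both libraries at 72 h and further above it at 120 h. The difference at 120 h was 4.88-fold (log2 2.29, SE 0.20, 95% interval 1.83 to 2.75; limma adjusted p = 0.000335), and it was called in 23 of 23 alternative analyses. At 72 h the log2 fold change was 0.80 (95% interval 0.24 to 1.37; limma adjusted p = 0.144). The effect at 120 h exceeded that at 6 h by 2.23 on the log2 scale (SE 0.29; limma adjusted p = 0.00476), a comparison in which 2 of the 10 genes (BPI and LYZ) and 5.90% of all genes tested were called (4.27% higher, 1.63% lower). Between the effects at 72 h and 6 h limma called 0 of the 10 genes, with 4 at an unadjusted p under 0.05, and 0.613% of all genes (0.557% higher, 0.0557% lower). Against the effect at 72 h the excess of BPI at 120 h was 1.49 and was not called (limma adjusted p = 0.444; 0% of all genes were called, 1022 at an unadjusted p under 0.05). Within decitabine cells, 120 h was higher than 72 h by 1.57 on the log2 scale (limma adjusted p = 0.0401; 0.130% of all genes called), and BPI was the 1 gene of the 10 called in that comparison (0.124% of all genes called higher, 0.00619% lower). This call was kept in 8 of 21 alternatives, whose adjusted p ran from 0.000285 to 0.364, and lost without any library of the 6 h or 120 h groups. Part of the BPI transcript, 8.46% of its 50-base windows, also occurs in transcripts of 2 other genes, matches on either strand counted. AL359555.1 and AL359555.3 overlap BPI and stayed below 10 normalised counts in every library.

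LYZ, which cleaves the peptidoglycan of bacterial walls, was the most abundant gene of the set per kilobase at 120 h, although MPO had more normalised counts in both DMSO libraries there. LYZ had 274384 and 277087 normalised counts in decitabine cells at 120 h, against 109603 and 120910 in DMSO cells. The decitabine libraries at 72 h held 223238 and 221653, against 122174 in DMSO. At 6 h decitabine cells had 138169 and 122489, and DMSO cells had 127048 and 126772. Treated and control libraries overlapped at 6 h and were well apart at both later times, and LYZ was the gene on which the decitabine 72 h libraries differed least, by 0.01 on the log2 scale. The 120 h difference was 2.40-fold (log2 1.26, SE 0.19, 95% interval 0.82 to 1.70; limma adjusted p = 0.00400). It was called in 21 of 23 alternatives, with adjusted p between 8.21e-05 and 0.0545, and missed the threshold without decitabine 120 h replicate 1 (limma adjusted p = 0.0545) or replicate 2 (limma adjusted p = 0.0523). At 72 h the log2 fold change was 0.86 (95% interval 0.32 to 1.40; limma adjusted p = 0.108). The excess of the 120 h over the 6 h effect was 1.22 on the log2 scale (limma adjusted p = 0.0389), a call kept in 9 of 21 alternatives (adjusted p 0.00146 to 0.173). It was lost without any 1 of the 6 h or 120 h libraries, with the replicate block (0.0628), after quantile normalisation (0.130), with a pseudocount of 5 (0.0524) and with no filter (0.0744). Of the 50-base windows of the LYZ transcript, 42.5% also occur, on either strand, in transcripts of other genes, 364 of them in all. The LYZ count therefore depends on how such reads were shared out. An antisense transcript, AC020656.1, overlaps LYZ and had 929 to 3660 normalised counts per library. The libraries were stranded, but no source used here states whether counting used the strand.

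SRGN, the proteoglycan core that packs the proteases, had 86969 and 88464 normalised counts in decitabine cells at 120 h and 40261 and 36097 in DMSO cells. At 72 h the decitabine libraries held 68326 and 30589, on either side of the 43483 in DMSO. At 6 h decitabine cells had 54360 and 41398, below the 56324 and 58325 in DMSO cells. The order of the treatments thus differed between 6 h and 120 h, and in DMSO cells the 120 h values were below the 6 h values (log2 difference -0.59; limma adjusted p = 0.957). At 120 h SRGN was higher by 1.20 on the log2 scale (SE 0.34, 95% interval 0.42 to 1.98; limma adjusted p = 0.0466), or 2.30-fold. That call was kept in 10 of 23 alternatives, with adjusted p from 0.000616 to 0.198. It was lost without any 1 of the 120 h libraries (limma adjusted p = 0.137 to 0.198) or of the 6 h libraries (0.0720 to 0.0810) and after quantile normalisation (0.194). The excess of its 120 h effect over the 6 h effect was 1.48 on the log2 scale (limma adjusted p = 0.120).

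None of the serine proteases or AZU1, their inactive homologue, was called at any time in the main analysis. ELANE had 368 and 397 normalised counts in decitabine cells at 120 h, against 771 and 909 in DMSO cells, 456 and 156 at 72 h against 868, and 891 and 847 at 6 h against 583 and 517. It was therefore above DMSO at 6 h and below DMSO at 72 and 120 h, with no overlap at any time. The log2 fold changes were 0.66 at 6 h, -1.70 at 72 h and -1.13 at 120 h (95% interval -2.06 to -0.19; limma adjusted p = 0.102), and none passed the threshold. At 120 h ELANE was called lower in 4 of 23 alternatives, with adjusted p from 0.000677 to 0.324. These were the 120 h libraries fitted alone (limma adjusted p = 0.00680), sample weights (0.00236) and the fits without decitabine 72 h replicate 1 (0.000718) or replicate 2 (0.000677). The effect at 120 h was lower than that at 6 h by 1.79 on the log2 scale (log2 difference -1.79, SE 0.58; limma adjusted p = 0.116). In DMSO cells ELANE was itself 0.61 higher on the log2 scale at 120 h than at 6 h (limma adjusted p = 0.959).

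PRTN3, which lies between AZU1 and ELANE and encodes the autoantigen of granulomatosis with polyangiitis, had 3364 and 3180 normalised counts in decitabine cells at 120 h, close to the 3706 and 3345 in DMSO cells. At 72 h its decitabine libraries held 3695 and 1399, around the 3035 in DMSO, and at 6 h 3381 and 3536 against 3554 and 3278. Its log2 fold change at 120 h was -0.11 (95% interval -0.95 to 0.74; limma adjusted p = 0.882). AZU1 had 479 and 469.6 in decitabine cells at 120 h, above the 351 and 346 in DMSO cells, 487 and 233 at 72 h against 436, and 343 and 327 at 6 h against 264 and 239. Its log2 fold change at 120 h was 0.44 (95% interval -0.25 to 1.13; limma adjusted p = 0.376), and it was 0.41 at 6 h (limma adjusted p = 1.00). AZU1 was called higher at 120 h in 3 of 23 alternatives, among them the fits without decitabine 72 h replicate 1 (limma adjusted p = 0.0248) or replicate 2 (0.0231), with adjusted p up to 0.620. These 3 adjacent genes of the chromosome 19 cluster therefore had log2 fold changes of 0.44 (AZU1), -0.11 (PRTN3) and -1.13 (ELANE) at 120 h, in their order along the chromosome. The ratio of PRTN3 to ELANE was 9.14 and 8.001 in decitabine cells at 120 h, against 4.81 and 3.68 in DMSO cells, and 3.79 and 4.17 in decitabine cells at 6 h, against 6.10 and 6.34 in DMSO cells. At 72 h the ratio was 8.11 and 8.98 in decitabine cells, against 3.50 in the DMSO library. That ratio, formed within a library, does not depend on the scaling between libraries. It contains the same ELANE counts, so its place on opposite sides of DMSO at 6 h and 120 h is not separate evidence.

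CTSG, a chymotrypsin-like protease, had 1041 and 977 normalised counts in decitabine cells at 120 h and 1043 and 1226 in DMSO cells. At 72 h it had 1214 and 1346 against 1156, and at 6 h 1255 and 1548 against 1435 and 1373. Its log2 fold change at 120 h was -0.16 (95% interval -0.55 to 0.22; limma adjusted p = 0.564), so a change of more than 1 in either direction on the log2 scale lay outside the interval. MPO had 116822 and 106597 in decitabine cells at 120 h, against 178349 and 122740 in DMSO cells, where the replicates differed 1.45-fold. At 72 h it had 134815 and 86061 against 108273, and at 6 h 102339 and 111308 against 135571 and 115397. The decitabine values lay below both DMSO values at 6 and 120 h and on either side of DMSO at 72 h, and the log2 fold change at 120 h was -0.41 (95% interval -1.05 to 0.23; limma adjusted p = 0.383; called in 0 of 23 alternatives). Within a library, the ratio of LYZ to MPO counts was 2.35 and 2.60 in decitabine cells at 120 h, against 0.615 and 0.985 in DMSO cells. It was 1.66 and 2.58 in decitabine cells at 72 h, against 1.13 in DMSO, and 1.35 and 1.10 at 6 h, against 0.937 and 1.10.

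MS4A3, which marks granulocyte-monocyte progenitors and binds cell-cycle regulators, had 11022 and 10736 normalised counts in decitabine cells at 120 h, against 5357 and 6402 in DMSO cells. At 72 h it had 9423 and 22020 against 5743, so that replicate 2 was far above any other library, and at 6 h it had 5924 and 7289 against 6466 and 6736. Treated libraries exceeded every DMSO library at 72 and 120 h, but the log2 fold changes of 1.33 at 72 h (limma adjusted p = 0.150) and 0.89 at 120 h (95% interval 0.11 to 1.67; limma adjusted p = 0.118) did not pass the threshold. At 120 h it was called higher in 7 of 23 alternatives, with adjusted p from 0.00175 to 0.350. Quantile normalisation (limma adjusted p = 0.0151) and the fits without decitabine 72 h replicate 1 or replicate 2 (0.00175 and 0.00176) were among them. SERPINB1, the inhibitor of elastase, proteinase 3 and cathepsin G, had 4888 and 4909.8 in decitabine cells at 120 h and 3343 and 4117 in DMSO cells, 3924 and 6592 at 72 h against 4032, and 4256 and 4554 at 6 h against 3928 and 3978. Its log2 fold change at 120 h was 0.40 (95% interval -0.14 to 0.94; limma adjusted p = 0.305). It was called higher there in 3 of 23 alternatives, with adjusted p up to 0.677, including the fits without decitabine 72 h replicate 1 (0.0272) or replicate 2 (0.0273).

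In DMSO cells, culture time was not accompanied by a called difference in any of the 10 genes. In the main analysis neither 72 h nor 120 h against 6 h gave a call by limma for any of the 16152 genes tested (0%), with 456 and 865 genes at an unadjusted p under 0.05, of which 0 were in the set. Over all genes, alternatives gave up to 112 called higher and 4 lower at 72 h (no filter on low values) and up to 9 and 3 at 120 h (without either decitabine 72 h library). The log2 differences of the 10 genes between DMSO at 120 h and at 6 h ran from -0.59 (SRGN) to 0.61 (ELANE).

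The decitabine 72 h libraries disagreed on several of the 10 genes. Over the single DMSO 72 h library, replicate 1 and replicate 2 had log2 ratios of -0.93 and -2.47 for ELANE, 0.28 and -1.12 for PRTN3, and 0.16 and -0.90 for AZU1. MPO had 0.32 and -0.33, and SRGN 0.65 and -0.51. MS4A3 went the other way, with 0.71 in replicate 1 and 1.94 in replicate 2, as did SERPINB1 with -0.04 and 0.71. With the values as deposited, BPI with 1.09 and 0.51, LYZ with 0.87 and 0.86 and CTSG with 0.07 and 0.22 kept their side of DMSO in both, as did ELANE and MS4A3. Scaling to the total without FP671120.7 and the 10 genes gave factors of 1.20 for replicate 2, 0.956 for replicate 1 and 0.962 for DMSO. Ratios of replicate 2 would be lower on that scale. The log2 fold change of CTSG at 72 h ran from -0.01 to 0.22 over 22 alternatives, with 1 of opposite sign to the main analysis. The replicates differed by more than 1 on the log2 scale for 5 of the 10 genes (ELANE, PRTN3, AZU1, SRGN and MS4A3), against 26.1% of all genes tested. Replicate 2, the library with the lower ELANE, PRTN3 and AZU1, held 0.106% of its counts in FP671120.7, close to the DMSO 72 h library with 0.0943%, whereas replicate 1 held 5.25%; the part of this in the values was not tested. Without replicate 1, limma called BPI, LYZ, MS4A3 and SERPINB1 higher and ELANE, PRTN3 and AZU1 lower at 72 h, and without replicate 2 it called BPI and LYZ higher and ELANE lower, in both cases with 1 library on each side of the 72 h comparison.

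**Figure D3:**
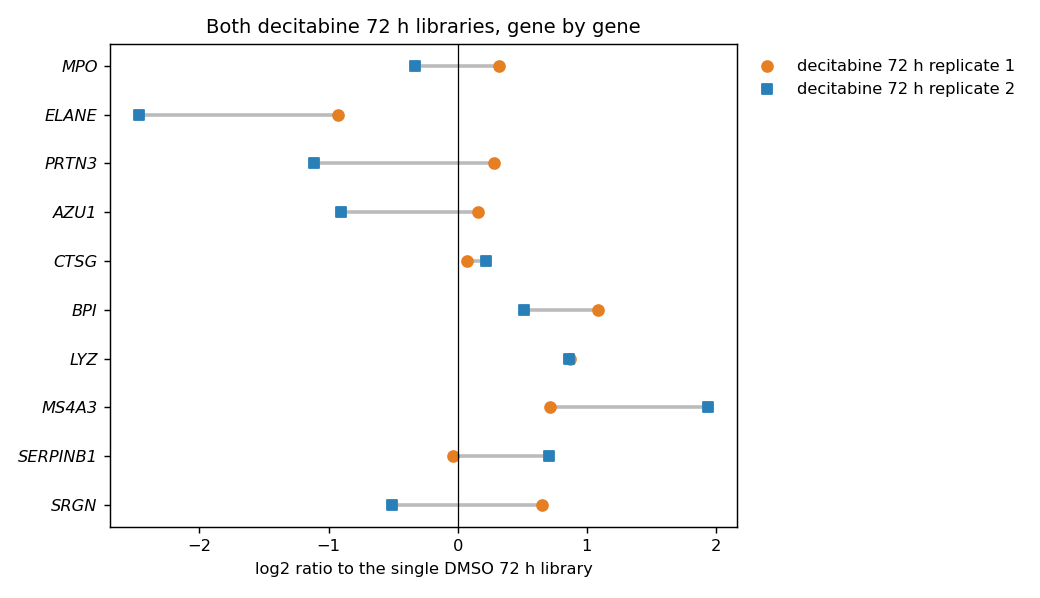
Log2 ratio of each decitabine 72 h library (circle, replicate 1; square, replicate 2) to the single DMSO 72 h library, with a grey line joining the replicates of a gene. The symbols coincide for LYZ, lie on opposite sides of 0 for MPO, PRTN3, AZU1, SERPINB1 and SRGN, and are on the same side for ELANE, CTSG, BPI and MS4A3.

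The 10 genes together took 3.65 and 3.78% of all normalised counts in decitabine cells at 120 h, against 2.39 and 1.98% in DMSO cells. At 72 h they took 3.29 and 2.33% against 2.26%, and at 6 h 2.38 and 2.20% against 2.42 and 2.34%. LYZ alone took 1.99 and 2.10% at 120 h in decitabine cells, against 0.763 and 0.807% in DMSO cells, and MPO 0.846 and 0.809%, against 1.24 and 0.819%. The 7 genes other than LYZ, MPO and SRGN came to 0.183 and 0.190%, against 0.108 and 0.115%. With FP671120.7 left out of the totals, the 10 genes took 3.93 and 3.93% in decitabine cells at 120 h and 2.60 and 2.22% in DMSO cells.

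**Figure D4:**
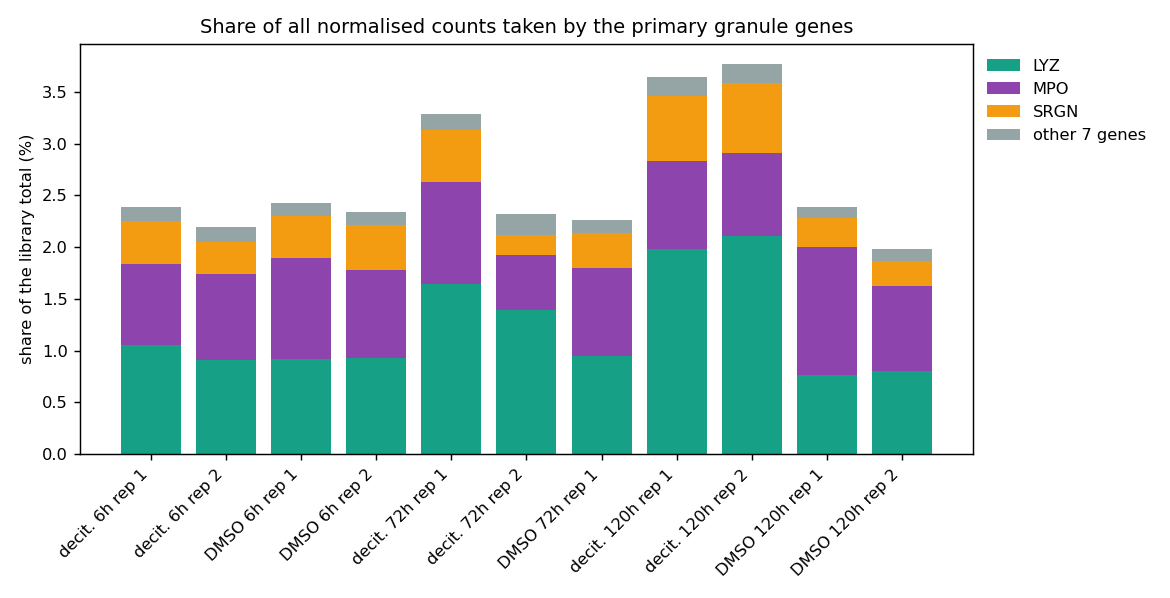
Share of each library's normalised counts (percent, stacked from 0) taken by LYZ, MPO, SRGN and the other 7 genes, with decitabine bars left of DMSO bars at each time. The bars for decitabine at 120 h reach 3.65 and 3.78%, those for DMSO at 120 h 2.39 and 1.98%, and LYZ makes up most of the difference.

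Most genes in a list of other azurophilic granule and lysosome pathway genes had higher RNA at 120 h. Of 34 tested genes of that list, 20 rose and 1 fell, against 9.91% and 6.00% of all genes tested. The median log2 fold change was 1.03, against 0.07 over all genes. The number called higher was 9 to 12 when any 1 of the 120 h libraries was left out. PRSS57, another serine protease of these granules, had 269 and 293 normalised counts in decitabine cells at 120 h, against 37.6 and 50.2 in DMSO cells (log2 2.66; limma adjusted p = 0.00617, or 0.0511 without decitabine 120 h replicate 2, its highest over 23 alternatives). SLC2A3, a glucose transporter, rose by 2.89 on the log2 scale, CD68, a lysosomal membrane protein that also stands in the monocyte list, by 1.90, and the ribonucleases RNASE2 and RNASE3, which are also eosinophil granule proteins, by 2.38 and 2.67. Reads of these paralogs may have been divided between them. The defensin genes DEFA3 and DEFA1B did not pass the test at 120 h. Their log2 fold changes were 0.52 (SE 0.68) and -2.04 (SE 1.07), with limma adjusted p = 0.666 and 0.247. DEFA1B was at 2.27 at 6 h and -3.81 at 72 h, not called at either time. Reads may have been divided between the defensin genes as well, so these values may not be effects on separate genes. CTSH, a cathepsin, had 38.2 and 31.5, against 5.40 and 4.09 (log2 2.65; limma adjusted p = 0.0201), a call lost without any 1 of the 120 h libraries (limma adjusted p = 0.0734 to 0.128, the latter the highest over 22 alternatives). The gene that fell was PRDX6, a peroxiredoxin, by 0.76, and without either decitabine 120 h library or without DMSO 120 h replicate 2 the count of genes called lower was 0. At 72 h 5 genes of the list were called higher (SLC2A3, CD68, CTSZ, CD63 and CTSB; 0 to 14 over the alternatives), and at 6 h 0.

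Of 22 tested genes that process, sort and release granule proteins, 2 rose and 0 fell at 120 h (0 to 4 and 0 to 1 over the alternatives), near the 9.91% called higher over all genes. RAB27A, a GTPase of granule release, rose by 1.32 on the log2 scale (limma adjusted p = 0.00701), and IGF2R, a mannose 6-phosphate receptor that sorts lysosomal enzymes, by 0.96 (limma adjusted p = 0.0130). RAB27A missed the threshold without either decitabine 120 h library or without DMSO 120 h replicate 2 (limma adjusted p = 0.0568 to 0.0590), and IGF2R without either decitabine 120 h library or without DMSO 120 h replicate 1 (0.0610 to 0.109). CTSC, the cathepsin C that activates the granule serine proteases, had 3418 and 3498 normalised counts in decitabine cells at 120 h, against 3436 and 3798 in DMSO cells (log2 -0.06, 95% interval -0.41 to 0.28; limma adjusted p = 0.822). Of 11 tested protease inhibitors, 3 rose and 0 fell, against 9.91% and 6.00% of all genes tested. SERPINA1, the main plasma inhibitor of elastase, had 1653 and 1692 against 170.1 and 153 (log2 3.37; limma adjusted p = 0.000139). SERPINB2, an inhibitor of plasminogen activators, rose by 1.50 on the log2 scale, a call lost without either decitabine 120 h library or without DMSO 120 h replicate 2 (limma adjusted p = 0.0568 to 0.0645). CST7, cystatin F, rose by 1.43 (limma adjusted p = 0.0410) and was called in 11 of 23 alternatives, not without any 1 of the 6 h or 120 h libraries (0.0692 to 0.184).

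A list of transcription factors, not all of them known to act on primary granule genes, was divided. Of 21 tested, 5 rose and 3 fell at 120 h, against 9.91% and 6.00% of all genes tested. The median log2 fold change was 0.09. CEBPE, which drives the step from primary to secondary granules, had 2565 and 2608 normalised counts in decitabine cells at 120 h, against 1299 and 1505 in DMSO cells (log2 0.89; limma adjusted p = 0.00501, but 0.0512 and 0.0531 without decitabine 120 h replicate 1 or replicate 2). GATA2, a factor of progenitors and of eosinophil and mast cell lineages, rose by 1.88 on the log2 scale, JUN by 2.30, KLF5 by 2.14 and EGR1 by 2.44. EGR1 missed the threshold when decitabine 120 h replicate 1 (limma adjusted p = 0.0940) or DMSO 120 h replicate 2 (0.0672) was left out. MYC fell by 2.08 and IRF8, a factor of monocyte development, by 2.47, while CEBPZ fell by 0.77. Several factors known to act on primary granule promoters did not pass the test at 120 h in the main analysis. CEBPA had 1120 and 1302 in decitabine cells, against 1962 and 1741 in DMSO cells (log2 -0.61, 95% interval -1.55 to 0.33, limma adjusted p = 0.368). CEBPA was called lower in 4 of 23 alternatives, among them sample weights (limma adjusted p = 0.0358) and the 120 h libraries fitted alone (0.0245). SPI1, which encodes PU.1, had a log2 fold change of 0.08 (limma adjusted p = 0.865), RUNX1 0.44 (0.0937), MYB -0.25 (0.619) and GFI1 0.00 (0.998). RUNX1 was called higher in 4 of 23 alternatives, among them sample weights (limma adjusted p = 0.0244) and all DMSO libraries as 1 control (0.0109). SPI1, MYB and GFI1 were called in 0 of 23.

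Granules made after the primary ones showed the largest median of the granule lists. Over all genes tested, 9.91% were called higher and 6.00% lower at 120 h. Of 24 tested secondary and tertiary granule genes, 18 rose and 1 fell at 120 h, with a median log2 fold change of 2.37, and 6 were called higher at 72 h (0 to 13 over the alternatives). MMP9, gelatinase B, had 227 and 223 normalised counts in decitabine cells at 120 h, against 0 and 3.22 in DMSO cells. TCN1, a vitamin B12 binder, had 261 and 258 against 21.5 and 29.4, and HP, haptoglobin, 5425 and 4471 against 531 and 519. MMP25 rose by 4.03, LCN2 by 4.23 and FPR1, the formyl peptide receptor, by 3.24 on the log2 scale. On the same scale and in the same fit, the most changed of the 10 primary granule genes, BPI, was at 2.29.

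**Figure D5:**
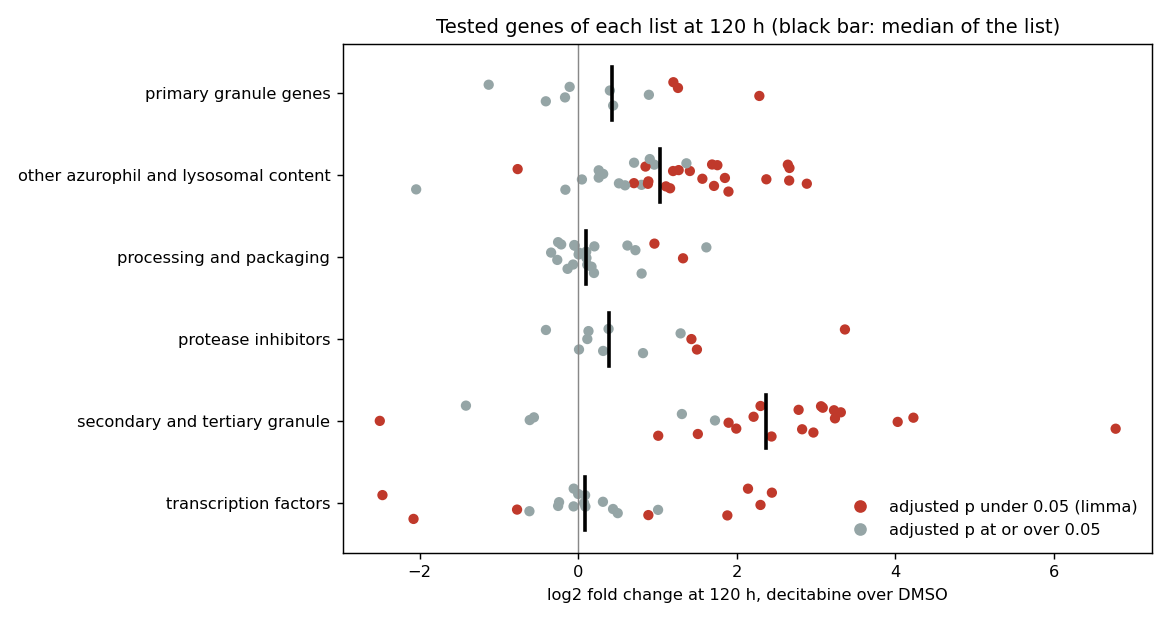
Log2 fold change at 120 h, decitabine over DMSO, of each tested gene of 6 lists (rows), with red for an adjusted p under 0.05 and a black bar for the list's median. Medians are 0.42 for the primary granule genes, 1.03 for other azurophil and lysosomal content, 0.10 for processing and packaging, 0.38 for protease inhibitors, 2.37 for secondary and tertiary granule genes and 0.09 for the transcription factors.

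In a list of genes near the 10 or of the same families, 20 were tested. Of these, 1 rose and 3 fell at 120 h, against 9.91 and 6.00% of all genes tested. The median log2 fold change was -0.32, against 0.07. Not all of them lie next to a gene of the set. EPX, the eosinophil peroxidase, is a paralogue of MPO that lies 64681 bases from it with 2 genes between, and it had 5582 and 5693 normalised counts in decitabine cells at 120 h, against 83.0 and 92.5 in DMSO cells (log2 5.99; limma adjusted p = 4.74e-05). At 72 h EPX had 1244 and 769.5 against 68.3. MPO, as given above, was not higher at either time. CFD, just after ELANE, had 463 and 549 in decitabine cells at 120 h, against 304 and 354 in DMSO cells (log2 0.62; limma adjusted p = 0.122), so ELANE had a lower and CFD a higher value than in DMSO. On chromosome 11, MS4A6A lies 100885 bases from MS4A3 with 3 annotated genes between. MS4A6A fell by 2.37 on the log2 scale (limma adjusted p = 0.00121). MS4A7 fell by 1.50 (limma adjusted p = 0.0293), a call lost without any 1 of the 6 h or 120 h libraries. SUPV3L1, a mitochondrial helicase near SRGN, fell by 1.24 (limma adjusted p = 0.00286).

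Markers of other lineages moved at 120 h as well. Counts called in these lists stand beside 9.91% of all genes tested called higher and 6.00% lower at 120 h. The summed level of 17 eosinophil, basophil and mast cell markers was 123934 to 134369 normalised counts in decitabine cells at 120 h. In DMSO cells it was 14741 to 16069, and 13 of the 15 tested rose. None of those 17 was at 0 in both decitabine libraries, against 3 in DMSO cells at 120 h. For 19 late neutrophil markers the sum was 65708 to 68451, against 14323 to 14359, with 12 of 18 tested called higher and 1 at 0 in every library; MMP9, LCN2 and FPR1 stand in this list too. For 17 monocyte and macrophage markers it was 6163 to 6304, against 1645 to 1824, with 7 of 13 called higher, 1 lower and 1 at 0 in every library. Of those 17, 3 were at 0 in both decitabine libraries at 120 h, against 2 in DMSO cells. CD68 alone held 2107 and 2053 of that sum in decitabine cells, against 579 and 537 in DMSO cells. For 13 erythroid and megakaryocyte markers the sum was 369 to 382, against 28.1 to 35.6, with 6 at 0 in every library. In both decitabine libraries 9 were at 0, so that few genes carry the sum. Of the 2 tested, 1 was called higher (ITGA2B, by 4.23 on the log2 scale). For 11 lymphoid markers the sum was 799 to 814, against 84.5 to 93.8, with 3 of 5 tested called higher (GNLY, CD3D and NKG7). The part of these markers' cell types in the values of BPI, LYZ and SRGN was not tested.

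Across the 11 libraries, which share the treatment and time groups as well as scaling, the 10 genes did not follow 1 pattern. Pearson correlations of log2 values between pairs of them ran from -0.94 (ELANE and MS4A3) to 0.91 (BPI and LYZ), with 0.90 between MS4A3 and SERPINB1, 0.76 between ELANE and PRTN3 and 0.44 between MPO and ELANE. The gene outside the set whose pattern was most like that of BPI was CLC, with a correlation of 0.997, followed by KCTD12 with 0.989 and NLRP12 with 0.989. LYZ was closest to TRDC with 0.995, MS4A3 to SERPINB10 with 0.995, ELANE to MCRS1 with 0.985, SRGN to COMMD6 with 0.976, PRTN3 to TMEM183B with 0.974, SERPINB1 to NAMPT with 0.973 and AZU1 to DGAT1 with 0.963. MPO and CTSG had the weakest nearest patterns, PRPF8 with 0.945 and ENDOD1 with 0.943. These are descriptions with no test.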

How the data were processed

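RNA from HL-60 cells was depleted of ribosomal RNA with RiboZero Gold, made into stranded ScriptSeq v2 libraries and read as single-end 50-base reads, per the labels' protocols. The submitters' processing notes list DESeq2, featureCounts, limma, Salmon 1.2.1 and STAR and the build hg38, without saying what each was used for, and no source used here gives the annotation release. Values were deposited as a normalised signal per gene, called normalised counts in the text. In each library 62.0 to 67.7% of values up to 10 counts were whole multiples, within 0.01, of that library's step, so whole reads were not recovered and no count model was run. Depth was estimated from those steps. The heading names 12 libraries over 11 columns of values, per the file headers, and its names were taken to begin at the symbol column, so DMSO 72 h replicate 2 is not analysed here. Read so, libraries of a group differed by a mean median absolute log2 difference of 0.299, against 0.439 between groups (0.429 and 0.426 if read from the identifier).

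The test covered the 16152 genes that reached 10 in 2 or more libraries, after the transformation log2(value + 1). Fold changes are on that scale, which understates changes of low genes. The model had a mean per group and used limma 3.58.1 on all 11 libraries (R 4.3.3; eBayes with a trend; 5 residual and 8.42 total degrees of freedom), with two-sided p-values and Benjamini-Hochberg adjustment over all genes tested; the lone DMSO 72 h library was taken to have the same spread as the rest. The step was tested on simulated data with the same spread setting in every group. That test therefore does not cover the wider decitabine 72 h pair. Values of groups are for n = 2 libraries.

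The 10 genes, the other lists and the tests were chosen with earlier results of these data known. Named list genes are up to 6 per list with the largest absolute log2 fold change among those called at any time. CEBPA, CEBPE, SPI1, RUNX1, MYB, GFI1, CTSC, PRSS57, CFD and EPX were named in any case. PRDX6, CEBPZ, CTSZ, CD63, CTSB, DEFA3 and DEFA1B were named after their values were seen. The same holds for ITGA2B, GNLY, CD3D and NKG7 of the marker lists. Alternatives were pseudocounts 0.5 and 5, other filters, 3 other scalings, no trend, sample weights, the libraries of the same time alone, a replicate block, all DMSO libraries as 1 control, and each library left out. Equal replicate numbers did not pair samples: correlations of deviations ran from -0.078 to 0.124. Windows of 50 bases, matched on both strands, and positions come from GENCODE 29. Plots were drawn with matplotlib 3.10.9.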

Additional observations from a re-analysis of the deposited data

Results flagged for a closer look

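The effect of decitabine on BPI was larger at 120 h than at 6 h by 2.23 on the log2 scale, by a test of the difference itself (limma adjusted p = 0.00476). Both decitabine libraries were above both DMSO libraries at 120 h, whereas the groups overlapped at 6 h, and the difference was called in 21 of 21 alternatives, with adjusted p from 0.000137 to 0.0366. For LYZ the same difference was 1.22 (limma adjusted p = 0.0389), with the same arrangement of the libraries. It was called in 9 of 21 alternatives, with adjusted p from 0.00146 to 0.173, and it missed the threshold without any 1 of the 6 h or 120 h libraries (limma adjusted p = 0.0996 to 0.173). Only the first dose had been added by 6 h, so dose number and time cannot be told apart in these differences.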

How the results depend on the processing

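The number of the 10 genes called higher at 120 h was 3 in the main analysis, 5 with sample weights and 5 with the 120 h libraries fitted alone, and 1 to 6 when each library was left out in turn; the number called lower was 0, 1, 1 and 0 to 1. At 72 h, 0 were called higher and 0 lower, against 3 and 1 with all DMSO libraries as 1 control group and 0 to 4 and 0 to 3 with libraries left out. At 6 h both counts were 0 in all alternatives run. The cause of these moves was not tested, except that leaving out a decitabine 72 h library removes the widest pair from the shared spread. CST7 at 72 h reversed to -0.57 (limma adjusted p = 0.0287) without decitabine 72 h replicate 1, against 0.17 with both and 0.92 without replicate 2.

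With the replicate block, BPI was 2.29, LYZ 1.26 and SRGN 1.20 at 120 h and all 3 were still called, while the block ended the calls of BPI between decitabine 120 h and 72 h (limma adjusted p = 0.0654) and of LYZ between the 120 h and 6 h effects (0.0628). Counts over all genes at 72 h were 194 higher and 21 lower with the block, against 303 and 50.

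Over all alternatives, genes called at 120 h ranged from 579 to 2709 higher and from 210 to 2396 lower. With 2 wells per group, 1 DMSO library at 72 h and no recovered reads, effects on weakly changed genes may go undetected, and every value rests on the reading of the heading.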
